A study of Mus musculus with 12 samples.

Results

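The ribosomal protein genes of the cytosol and of the mitochondrion were examined in T helper cells polarized for 3 days. Members were taken by symbol from the deposited tables. The cytosolic class held every symbol that starts with Rpl or Rps followed by a digit, together with Rpsa, Rplp0, Rplp1, and Rplp2, and the mitochondrial class every symbol that starts with Mrpl or Mrps followed by a digit, without the Rps6k kinases and without symbols marked -ps. This gave 159 of the 11247 genes listed in either table. The Th17 table held 81 cytosolic and 77 mitochondrial members, and the iTreg table held 82 and 77, the extra gene being Rps4l. All 158 and 159 of them passed the filter on low values, so every listed member was tested. The rule reads symbols only, and it takes in Rps19bp1, which binds RPS19 and is no ribosomal protein itself. It also takes in Mrps36, which is also known as a subunit of the α-ketoglutarate dehydrogenase complex. Rps4l, which the GENCODE annotation lists as a transcribed processed pseudogene, stays in because its symbol is not marked -ps.

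RNA had been sequenced from 12 libraries, 4 each of Th0, Th17, and iTreg cells. Naive CD4+CD62L+ T cells came from the spleens of 8- to 10-week-old C57BL/6 mice, and all cultures received plate-bound anti-CD3 and anti-CD28 at 1 µg/ml each. Th0 cultures had no further addition. Th17 polarization added IL6 (30 ng/ml), TGFb1 (5 ng/ml), and antibodies against IL4 and IFNγ (10 µg/ml each). For iTreg polarization IL2 and TGFb1 were added, both at 10 ng/ml by the labels, while the methods of the study give another TGFb1 concentration for iTreg cells. No allele, deletion, or transgene distinguished the groups, and no sort of the polarized cells is named in the methods, so each library is a whole culture.

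The cytosolic ribosome is built in the nucleolus from rRNAs and a large set of proteins, and its proteins are encoded by nuclear genes whose mRNAs are among the most abundant of a growing cell. The mitochondrial ribosome translates only the few mRNAs made inside the organelle, which code for subunits of the respiratory chain and of ATP synthase, and all of its proteins are also encoded in the nucleus and imported. T cells enlarge and build ribosomes of both kinds after activation, before and while they divide.

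Values are FPKM, fragment counts scaled by transcript length and by library size, in a table of 8 libraries for each comparison. The 2 tables carry the same Th0 libraries, whose FPKM differ between them by a factor of 0.988 to 0.991 that is constant in each library, and Th17 and iTreg cells were therefore compared with Th0 cells only and not with each other. Libraries are named by the beginnings of their column headings (M22, M29, M42, and M43), each of which recurs in every group. Low FPKM values lay on steps worth 1 fragment, and by these steps the depth of the libraries was estimated to differ by up to 1.29 times in the Th17 table and up to 1.44 times in the iTreg table. The support for these ratios was narrow. The ratio of 1.29 had 103 matches to the steps and the next candidate 95, and that of 1.44 had 109 and 91. The T cell genes Cd3d, Cd3e, Cd3g, Cd4, Cd5, and Cd28 summed to 713 to 2028 FPKM in every library. Of other cell types, Cd8b1 was at 2.19 to 6.60 FPKM, Cd79a at 0.505 to 3.84 FPKM, and Itgam at no more than 0.628 FPKM, in the tables that list them. Among the genes listed for the Th17 comparison were 1 of 2 CD8 T cell, 1 of 4 B cell, 1 of 6 myeloid, 0 of 2 NK cell, and 0 of 3 erythroid markers, after the authors had removed genes with low counts. Foxp3 and Itgae summed to 2.34 to 7.84 FPKM in Th0 and 64.6 to 108 FPKM in iTreg cells, and in the Th17 table to 9.24 to 55.4 FPKM in Th17 cells. The part of these marker levels in the ribosomal protein values was not tested.

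Many cytosolic ribosomal protein mRNAs begin with a C followed by an uninterrupted run of pyrimidines, the 5′ terminal oligopyrimidine (TOP) tract, through which their translation responds to mTOR signalling. The first start site that RefSeq lists on GRCm38.p6, whose coordinates and sequence are used here, was found for 130 members, 62 cytosolic and 68 mitochondrial. A TOP-like tract was defined as a C within 5 bases of that start site. From this C at least 7 bases in a row had to be C or T, whatever bases precede it. Such a tract was present in 33.9% of the cytosolic and 2.94% of the mitochondrial members. It was present in 6.81% of the 8565 genes listed in either table that have a RefSeq promoter, and in 6.47% of all genes with one. The following windows of 15 bases before and 15 bases from the start site show the tract in capitals for 5 cytosolic members and the same window for Mrps5 and Mrps6, the 2 mitochondrial members called in Th17 cells, in which no tract was found:
Rps6, chr4:86857353-86857382, minus strand: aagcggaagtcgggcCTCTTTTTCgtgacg
Rpl7a, chr2:26910792-26910821, plus strand: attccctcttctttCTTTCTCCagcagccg
Rplp2, chr7:141447636-141447665, plus strand: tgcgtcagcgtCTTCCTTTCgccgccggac
Rpl22l1, chr3:28805493-28805522, plus strand: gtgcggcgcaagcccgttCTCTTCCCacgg
Rps27, chr3:90213634-90213663, minus strand: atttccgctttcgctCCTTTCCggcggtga
Mrps5, chr2:127587411-127587440, plus strand: gctgctccggctccagcatggcggcggccg
Mrps6, chr16:92058321-92058350, plus strand: tgctttcgccgtccgggagctgaccggccg
The capitals run from the matching C that is nearest to the start site, which in Rps6 and Rps27 is the start site itself. In all 5 cytosolic members 1 or more C or T precede the capitals without a break, so that the whole pyrimidine run opens farther upstream than the capitals, the most so in Rpl7a. An annotated start site can differ by some bases from the one used in these cells.

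The 300 bases around the start site (250 before and 50 after) were searched on both strands, with matches of different motifs allowed to overlap. The GABPA motif CCGGAAG was found in 38.7% of the cytosolic and 35.3% of the mitochondrial members, and in 20.0% of the listed genes with a promoter. The YY1 motif AAGATGGCG was found in 6.45% and 11.8% of the classes and 3.58% of these listed genes. A motif of NRF1, searched in the same way, was found in 1.61% and 4.41%, in comparison to 2.32%, and the E-box CACGTG that MYC binds in 8.06% and 7.35%, in comparison to 10.7%. TATAAA was found in 9.68% and 5.88% of the classes and 6.39% of the listed genes. Both classes held CCGGAAG more often than the listed genes did, and the tract at the start site was more frequent in the cytosolic class alone. No test was run on these shares.

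The levels of the classes were far apart. The median cytosolic member was at 2160 FPKM and the median mitochondrial member at 35.8 FPKM in Th0 cells of the Th17 table (means of 4 libraries), and 67 of the 81 cytosolic but 0 of the 77 mitochondrial members had a mean over 1000 FPKM. In single libraries of both tables the median of the cytosolic class was 54.0 to 75.2 times that of the mitochondrial class. The most abundant cytosolic members over all libraries of the Th17 table were Rps12 (5965 FPKM), Rplp1 of the ribosomal stalk (5869 FPKM), and Rps4x (4481 FPKM). The order among them was within their spread, as Rps12 ranged from 4541 to 6594 FPKM and Rplp1 from 5395 to 6204 FPKM in Th0 libraries. Rpl39l, the paralogue of Rpl39 known from the testis, was the lowest at 0.991 FPKM, followed by Rps27 at 2.09 FPKM and Rpl34 at 3.56 FPKM. The next in the order was Rps19bp1 at 31.3 FPKM, 8.79 times Rpl34. Rps27 and Rpl34 encode proteins of the cytosolic ribosome, and their listed FPKM were lower than those of most mitochondrial members. FPKM depends on the exons and reads assigned to a gene, and the sources used here name no gene annotation for the counting.

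**Figure D1:**
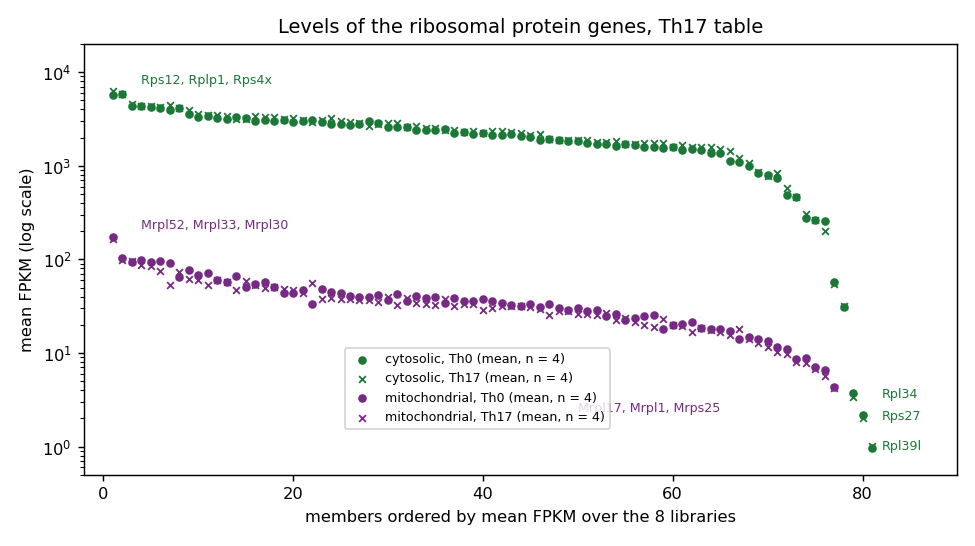
Mean FPKM (log axis) of each ribosomal protein gene in Th0 (dots) and Th17 cells (crosses), n = 4 libraries each, ordered within the cytosolic (green) and mitochondrial (purple) class by the mean over the 8 libraries of the Th17 table. The cytosolic class has a median of 2160 FPKM in Th0 cells with a drop to Rpl34, Rps27, and Rpl39l, and the mitochondrial class runs from 170 FPKM (Mrpl52) to 4.26 FPKM (Mrps25).

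Among the mitochondrial members, Mrpl52 was the highest at 170 FPKM, followed by Mrpl33 at 102 FPKM and Mrpl30 at 94.5 FPKM. Mrpl52 was above all other mitochondrial members in each library, while the ranges of Mrpl33 (84.9 to 127 FPKM) and Mrpl30 (83.1 to 112 FPKM) overlapped. The lowest were Mrps25 (4.26 FPKM), Mrpl1 (6.09 FPKM), and Mrpl17 (6.89 FPKM). The 4 Th0 libraries varied by a median coefficient of variation of 10.1% for cytosolic and 12.6% for mitochondrial members.

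Cytosolic ribosomal protein genes took 31.4% to 39.7% of the summed FPKM of a library, and their share was higher in iTreg than in Th0 cells within every heading. These shares are given as values without a test. In the Th0 libraries M22, M29, M42, and M43 of the iTreg table the share was 32.04%, 35.5%, 35.9%, and 32.9%, and in the iTreg libraries 35.2%, 37.0%, 39.7%, and 34.4%. The groups overlapped, and each iTreg library was 1.51 to 3.73 percentage points above the Th0 library of the same heading. In the Th17 libraries the share was 31.4%, 36.1%, 39.5%, and 34.2%, which was below Th0 in M22 and above it in the other 3 headings. The mitochondrial class took 0.571%, 0.534%, 0.631%, and 0.633% in Th0 libraries, 0.537%, 0.546%, 0.569%, and 0.503% in Th17 libraries, and 0.573%, 0.603%, 0.645%, and 0.600% in iTreg libraries. Its share was below Th0 in 3 of 4 headings in Th17 cells and above Th0 in 3 of 4 headings in iTreg cells, and the groups overlapped. In bulk samples, fewer cells of a type and less RNA per cell cannot be told apart.

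**Figure D2:**
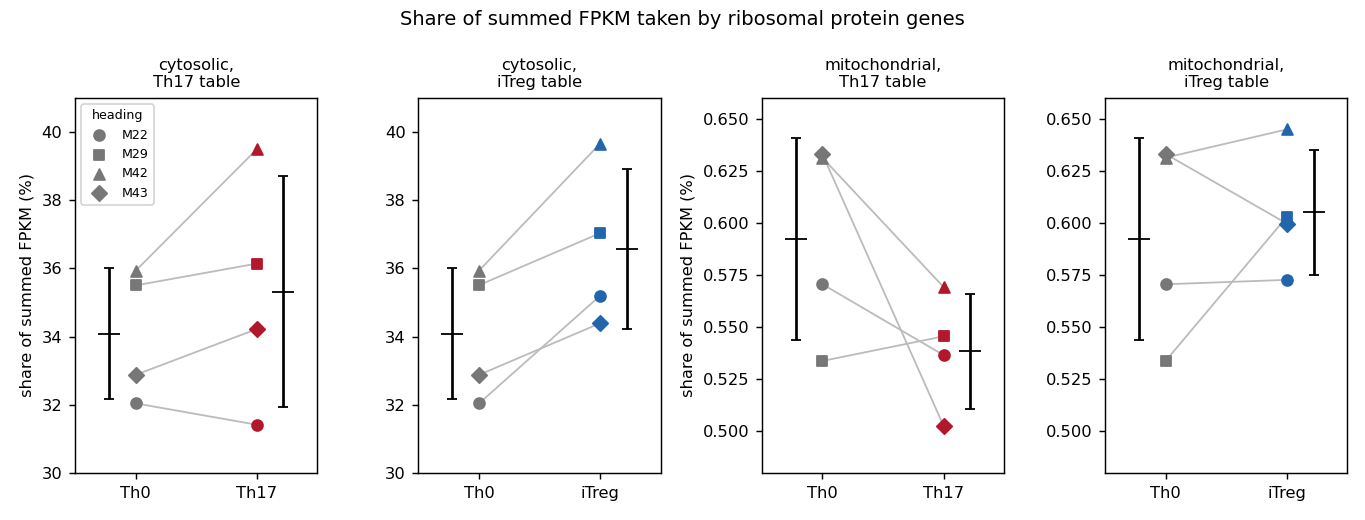
Share of summed FPKM (%) taken by cytosolic (left pair of panels) and mitochondrial (right pair) ribosomal protein genes in each library, with lines joining libraries of the same heading and bars for the mean ± SD of 4 libraries. Axes do not start at 0. The cytosolic share is higher in iTreg than in Th0 libraries within all 4 headings, while the groups overlap in every panel.

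Genes were tested with limma on log2(FPKM + 1) over all 10269 genes of the Th17 table and 10208 of the iTreg table that passed the filter, and a gene is said to have risen or fallen at a Benjamini-Hochberg adjusted p under 0.05. Libraries of the same heading deviated from their group means together, and the same fit with the heading as a block (the replicate block) is given beside the unpaired counts because it moved them by more than 1.5 times. The added 1 makes fold changes of weakly expressed genes too small on this scale.

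In Th17 cells, no cytosolic ribosomal protein gene rose or fell. The count was 0 of 81 in either direction by limma, whereas 10.6% of all tested genes were called higher and 8.69% lower. At an unadjusted p under 0.05 it was also 0, where 1720 of all 10269 tested genes were higher and 1606 lower. With the replicate block 1 was called higher, in comparison to 19.2% of all tested genes, and 0 lower. The median log2 fold change of the class was 0.06, with 61 members above and 20 below 0, against a median of -0.0007 for all tested genes. Without the Th17 library M42 this median was -0.04, so the sign of the class median depended on a single library, and without both libraries of heading M42 it was 0.01. Within the headings the median difference between Th17 and Th0 cells was -0.07 in M22, 0.05 in M29, 0.25 in M42, and 0.05 in M43. Members with the same direction in all headings were 15 higher (18.5%) and 2 lower (2.47%), below the 28.4% and 26.9% of all tested genes. The libraries of the groups overlapped for every cytosolic member, where 13.2% of all tested genes were higher and 10.6% lower without overlap. The large and small subunit did not stand apart, with medians of 0.06 for 48 Rpl and 0.08 for 33 Rps genes.

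The member that was called only with the block was Rpl24, a protein of the large subunit, chosen here after its values were seen. It was at 1037, 1126, 1230, and 1160 FPKM in Th0 libraries M22, M29, M42, and M43 and at 1151, 1391, 1788, and 1360 FPKM in the Th17 libraries. Every Th17 library was above the Th0 library of its heading, but the lowest Th17 value lay among the Th0 values. The log2 fold change was 0.31 (standard error 0.14, limma adjusted p = 0.174), with an adjusted p of 0.0409 with the block. At the other end, Rps27l, a paralogue of Rps27 that is induced by p53, had a log2 fold change of -0.33 (standard error 0.32, limma adjusted p = 0.52). It was at 197, 151, 340, and 341 FPKM in Th0 and 142, 166, 302, and 193 FPKM in Th17 libraries, so the groups overlapped widely.

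Of the mitochondrial ribosomal protein genes, Mrps5 rose and Mrps6 fell in Th17 cells, and the other 75 of 77 were not called. Both encode proteins of the small subunit. Mrps5 (chromosome 2 from 127587222 to 127606829 of GRCm38, plus strand) was at 26.1, 37.8, 34.4, and 35.4 FPKM in Th0 libraries and at 54.9, 59.4, 50.03, and 58.6 FPKM in Th17 libraries. The groups did not overlap, and the means were 33.4 ± 5.11 and 55.7 ± 4.27 FPKM (SD, n = 4). Its log2 fold change was 0.73 (standard error 0.13, limma adjusted p = 0.00527), and it was higher in 4 of 4 headings. The two-sided exact permutation test gave p = 0.0286, the smallest that 4 libraries against 4 allow. Any gene whose groups do not overlap gets this p-value, so it adds nothing to the lack of overlap. The call held under all 21 alternatives tried, with adjusted p from 0.00264 to 0.0463.

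Mrps6 (chromosome 16 from 92058270 to 92112227, plus strand) was at 84.7, 81.5, 107, and 91.6 FPKM in Th0 and 49.3, 48.04, 65.4, and 49.7 FPKM in Th17 libraries. All Th17 libraries lay below all Th0 libraries, with means of 91.3 ± 11.5 and 53.1 ± 8.20 FPKM (SD, n = 4). The log2 fold change was -0.77 (standard error 0.14, limma adjusted p = 0.00476, exact permutation p = 0.0286). Mrps6 shares 19.9% of its annotated exonic bases with Slc5a3 and Gm49711, and reads from this stretch cannot be told apart by position. Without both libraries of heading M22 or of heading M43 the limma adjusted p was 0.05017 and 0.0529, at log2 fold changes of -0.78 and -0.74. In the iTreg table, Mrps6 was at 80.1, 94.5, 149, and 111 FPKM in iTreg libraries against 83.7, 80.8, 106, and 90.5 FPKM in Th0 libraries (log2 fold change 0.23, standard error 0.19, limma adjusted p = 0.46).

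The mitochondrial class as a whole had a median log2 fold change of -0.11 in Th17 cells, with 60 members below and 17 above 0. The calls did not exceed those among all genes: 1 was lower (1.30%) and 1 higher without the block, and 10 (13.0%) were lower with the block, where 18.6% of all tested genes were. Besides Mrps6 these were Mrpl13, Mrpl42, Mrps28, Mrpl45, Mrps21, Mrpl39, Mrps14, Mrps33, and Mrpl18, named here after their values were seen, with log2 fold changes from -0.33 to -0.49. Mrpl13 of the large subunit, for instance, was at 57.1, 51.8, 80.9, and 75.8 FPKM in Th0 and 37.9, 44.6, 64.1, and 41.97 FPKM in Th17 libraries (limma adjusted p = 0.129, with the block 0.0191). Every Th17 library was below Th0 within its heading, while the ranges overlapped. In all 4 headings 20 members (26.0%) were lower and 4 (5.19%) higher, in comparison to 26.9% and 28.4% of all tested genes. The median difference of the class was -0.10 in M22, 0.04 in M29, -0.04 in M42, and -0.38 in M43, and without heading M43, which had the lowest, the median was -0.03. Leaving out the Th17 library M42 instead gave 6 members called lower, and leaving out the Th0 library M29 gave 3.

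**Figure D3:**
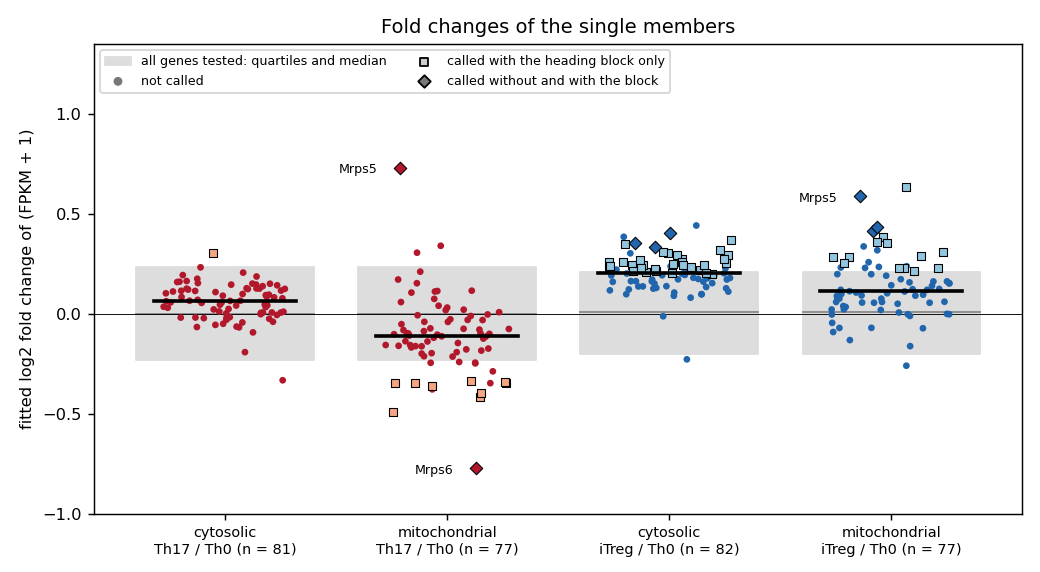
Fitted log2 fold change of (FPKM + 1) of every member against Th0 cells, by comparison and class, with black bars for the class median and grey boxes for the quartiles and median of all tested genes. Diamonds are members called without and with the block, squares members called with the block only. Mrps5 and Mrps6 stand away from the other members in Th17 cells, and the cytosolic members of iTreg cells gather above 0 with a median of 0.20.

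In iTreg cells, the cytosolic ribosomal protein genes were shifted upward as a group by a small amount. The median log2 fold change was 0.20, which is 1.15-fold, with 80 of 82 members above 0, against a median of 0.01 for all tested genes. Limma called a rise for 3 members (3.66%) and a fall for 0, where 8.36% and 8.21% of all tested genes were called. At an unadjusted p under 0.05, 12 of the 82 members were higher and 0 lower. Of all 10208 tested genes, 1562 were higher and 1512 lower at that threshold. With the replicate block 34 (41.5%) were called higher and 0 lower, in comparison to 20.9% and 20.0% of all tested genes. Of the 82 members, 66 (80.5%) were higher within all 4 headings and 1 was lower, against 29.1% and 27.4% of all tested genes. Only 10 (12.2%) were higher without any overlap between the groups, near the 11.7% of all tested genes, and 0 were lower, against 11.0%. The class median of log2(FPKM + 1) was 10.94 to 11.17 in Th0 and 11.11 to 11.45 in iTreg libraries, so the groups overlapped. Within headings the median difference was 0.24, 0.13, 0.30, and 0.15 in M22, M29, M42, and M43. The median log2 fold change stayed between 0.13 and 0.25 with any library left out. It was 0.17 without both libraries of M42, the heading with the largest difference.

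The scale of the libraries bears on this shift. With each library scaled to the same summed FPKM, the median of the cytosolic class was 0.10 and that of all tested genes -0.08, and 641 genes were called higher and 1175 lower in place of 853 and 838. Only 1 cytosolic member was called higher on that scale. With scaling to the summed FPKM outside both classes the class median was 0.16, and with trimmed mean scaling 0.20. Its sign was positive under all of these scalings.

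The 3 cytosolic members that rose in iTreg cells all belong to the large subunit. Rpl24 (chromosome 16 from 55966275 to 55971435, plus strand) was at 1025, 1116, 1216, and 1146 FPKM in Th0 and 1378, 1489, 1691, and 1402 FPKM in iTreg libraries. Its log2 fold change was 0.40 (standard error 0.10, limma adjusted p = 0.0284, with the block 0.00377). Rpl7a (chromosome 2 from 26910764 to 26913318, plus strand) was at 1710, 1676, 1868, and 1753 FPKM in Th0 and 2146, 2224, 2484, and 2106 FPKM in iTreg libraries, a log2 fold change of 0.35 (standard error 0.09, limma adjusted p = 0.0305, with the block 0.00609). Rpl23a, which sits near the exit of the nascent peptide (chromosome 11 from 78180932 to 78183584, minus strand), was at 3336, 3633, 3596, and 3468 FPKM in Th0 and 4353, 4208, 4858, and 4312 FPKM in iTreg libraries, a log2 fold change of 0.34 (standard error 0.09, limma adjusted p = 0.0305, with the block 0.00916). The groups did not overlap in any of the 3 genes, which by itself sets the exact permutation p at 0.0286 each. Of all tested genes 11.7% were higher without overlap. The calls were at the edge of the threshold, and each of the 3 was lost under 12 of 21 alternatives, among them the leaving out of single libraries such as the Th0 library M43.

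Reads of these genes may be shared with other annotated genes, at the same place or elsewhere in the genome. Of the 100-base windows of their transcripts, 49.0% in Rpl24, 28.1% in Rpl7a, and 73.9% in Rpl23a also occur in transcripts of other annotated genes, which for Rpl7a included 37 pseudogenes. Gm28037 overlaps 47.0% of the exonic bases of Rpl24, and Tlcd1 and Snord42b overlap 62.3% of those of Rpl23a. For Rpl7a the overlap was 8.14%. Part of the shared windows can therefore lie at the same place in the genome. Across the classes the median share of such windows was 14.9% for cytosolic and 0% for mitochondrial members. The shift in iTreg cells was close in the 31 cytosolic members with under 10% shared windows (median log2 fold change 0.19, 10 called higher with the block) and in the 51 others (0.21 and 24). It was also close in members with a TOP-like tract (0.21, n = 21) and without one (0.19, n = 41). In Th17 cells the medians of these last groups were 0.11 and 0.03. These are descriptions without a test.

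**Figure D4:**
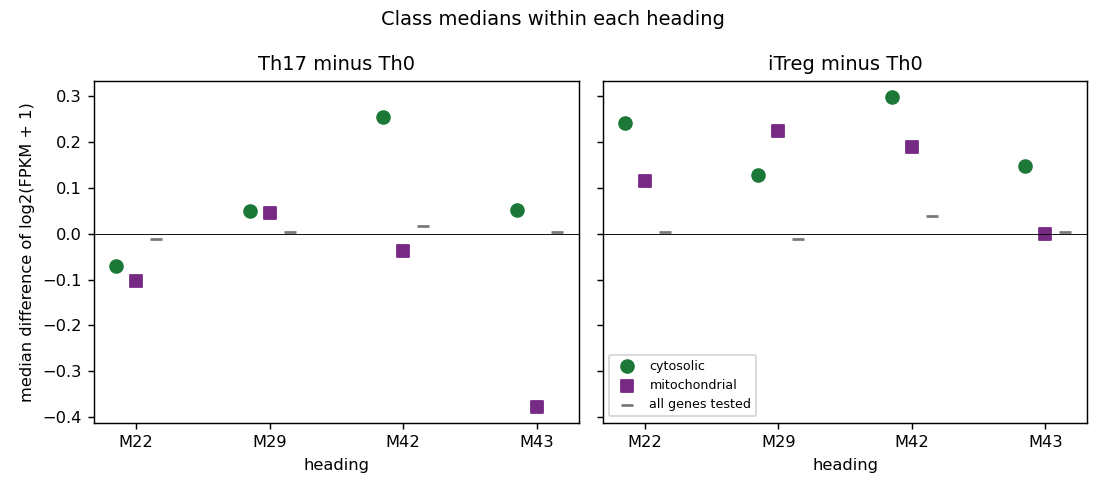
Median difference of log2(FPKM + 1) between polarized and Th0 cells within each heading, for cytosolic members (circles), mitochondrial members (squares), and all tested genes (dashes). In iTreg cells the cytosolic medians lie between 0.13 and 0.30 in all headings, and in Th17 cells the mitochondrial median is lowest in M43 at -0.38.

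Of the mitochondrial members, Mrps5, Mrps34, and Mrps18b rose in iTreg cells, all 3 of the small subunit. Limma called 0 lower, also at an unadjusted p under 0.05, where 1512 of all 10208 tested genes were lower. The class median was 0.11, with 64 members above and 13 below 0. Calls were 3 of 77 (3.90%) without the block, below the 8.36% of all tested genes, and 16 (20.8%) with it, at the level of all tested genes (20.9%). Members higher without overlap were 9 (11.7%), the same share as among all tested genes (11.7%). Within headings the median difference was 0.11, 0.22, 0.19, and 0.00 in M22, M29, M42, and M43, and 31 members (40.3%) were higher in all 4 headings, in comparison to 29.1% of all tested genes. Scaled to the same summed FPKM the class median was 0.02.

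Mrps5 was at 25.8, 37.5, 34.0, and 35.0 FPKM in Th0 and 47.3, 56.0, 49.1, and 47.1 FPKM in iTreg libraries, with no overlap (log2 fold change 0.59, standard error 0.13, limma adjusted p = 0.0163, exact permutation p = 0.0286). The Th0 library M22 was the lowest of its group in both tables, which hold the same Th0 libraries. Mrps34 (chromosome 17 from 24895116 to 24897502, plus strand), a protein that the bacterial ribosome lacks, was at 36.9, 35.3, 36.5, and 33.1 FPKM in Th0 and 56.1, 46.7, 49.2, and 41.7 FPKM in iTreg libraries (log2 fold change 0.43, standard error 0.11, limma adjusted p = 0.0265). It shares 77.8% of its exonic bases with the neighbours Nme3 and Mapk8ip3, so that its value is uncertain. Mrps18b (chromosome 17 from 35910379 to 35916389, minus strand) was at 53.7, 50.8, 61.6, and 59.8 FPKM in Th0 and 67.4, 75.7, 84.2, and 74.7 FPKM in iTreg libraries (log2 fold change 0.41, standard error 0.11, limma adjusted p = 0.0299). Gm16279 overlaps 30.5% of its exonic bases. Both groups were apart in Mrps34 and Mrps18b too. The calls of Mrps34 and Mrps18b were lost under 14 and 11 of 21 alternatives, and that of Mrps5 under 4.

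Mrps18b has 2 relatives, Mrps18a of the large subunit and Mrps18c of the small subunit, and neither was called. Mrps18a was at 35.0, 32.9, 41.5, and 41.8 FPKM in Th0 and 35.9, 34.8, 44.2, and 36.1 FPKM in iTreg libraries. Mrps18c was at 58.6, 55.8, 63.4, and 57.5 FPKM in Th0 and 64.6, 66.9, 63.2, and 57.2 FPKM in iTreg libraries, and the groups overlapped in both genes. Neither was called with the block. The largest difference of the class was that of Mrpl53, chosen after its values were seen, at 14.5, 14.05, 22.7, and 20.7 FPKM in Th0 and 21.6, 29.2, 38.8, and 24.5 FPKM in iTreg libraries. Its log2 fold change was 0.63 (standard error 0.22, limma adjusted p = 0.0822, with the block 0.00778), and Ccdc142os and Gm42688 overlap 88.0% of its exonic bases. Mrps36 had the lowest value, a log2 fold change of -0.26 (standard error 0.14, limma adjusted p = 0.254). Mrpl12, the stalk protein that also binds the mitochondrial RNA polymerase, was at 81.0, 69.0, 125, and 110 FPKM in Th0 and 91.4, 89.1, 148, and 122 FPKM in iTreg libraries, higher in 4 of 4 headings (log2 fold change 0.23, limma adjusted p = 0.57, with the block 0.037). Its spread between headings was wider than the difference between the groups. Mrpl11, Mrps12, Mrpl44, and Mrpl3 had log2 fold changes of 0.23, 0.11, 0.08, and 0.02 in iTreg cells and were not called with or without the block.

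**Figure D5:**
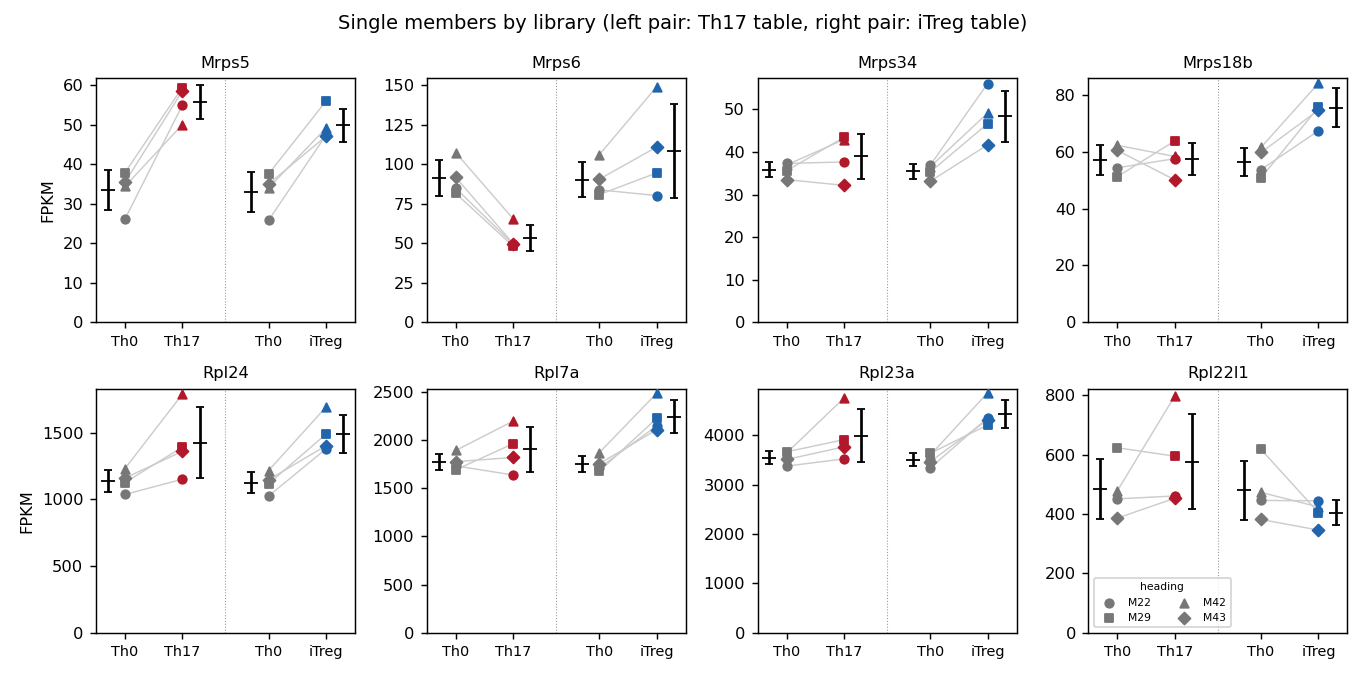
FPKM of 8 members in each library, with Th0 and Th17 libraries of the Th17 table on the left and Th0 and iTreg libraries of the iTreg table on the right of each panel. Symbols mark headings, lines join libraries of the same heading, and bars are the mean ± SD (n = 4). Mrps5 is higher and Mrps6 lower than Th0 in all Th17 libraries, and Rpl22l1 is lower than Th0 within every heading in iTreg libraries.

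Some ribosomal proteins have a paralogue that can take their place. Rpl22l1 is the paralogue of Rpl22 and is known to be held down by it. Rpl22l1 was at 446, 618, 473, and 382 FPKM in Th0 and 445, 405, 424, and 346 FPKM in iTreg libraries, lower in 4 of 4 headings (log2 fold change -0.23, standard error 0.16, limma adjusted p = 0.377, with the block 0.134). Rpl22 was at 225, 266, 281, and 261 FPKM in Th0 and 261, 290, 321, and 284 FPKM in iTreg libraries, higher in 4 of 4 headings (limma adjusted p = 0.358, with the block 0.0803). Rpl22l1 was at 198%, 232%, 168%, and 146% of Rpl22 in the Th0 libraries and at 171%, 140%, 132%, and 122% in the iTreg libraries. In Th17 libraries it was at 205%, 224%, 245%, and 189%, higher than Th0 in 3 of 4 headings. Neither gene was called in either comparison. Rpl22l1 and Rps4l, at -0.23 and -0.01, were the only cytosolic members with a log2 fold change below 0 in iTreg cells. Rps4l, annotated as a transcribed processed pseudogene, was at 0.280 to 2.38 FPKM in Th0 and 0.681 to 1.53 FPKM in iTreg libraries. Rps4x was at 3776 to 4860 and 4389 to 5389 FPKM.

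Rps27l was at 194, 150, 336, and 337 FPKM in Th0 and 253, 274, 442, and 316 FPKM in iTreg libraries, higher in 3 of 4 headings (limma adjusted p = 0.436, with the block 0.0727). Rps27, listed far lower, was at 1.29 to 3.67 FPKM in Th0 and 2.33 to 4.05 FPKM in iTreg libraries (log2 fold change 0.44, the highest of the cytosolic class, standard error 0.23, limma adjusted p = 0.233). Rps27a, which is fused to ubiquitin, was at 1591 to 2010 FPKM and 1958 to 2479 FPKM (limma adjusted p = 0.226, with the block 0.0327). Rpl7l1, a relative of Rpl7 that acts in ribosome assembly, was at 46.3 to 67.0 FPKM in Th0 and 56.6 to 83.2 FPKM in iTreg libraries, 1.74% to 2.43% and 1.87% to 2.31% of Rpl7. Rpl39l stayed at 0.129 to 2.27 FPKM in the Th17 table and 0.164 to 2.20 FPKM in the iTreg table, where Rpl39 was at 2620 to 3462 FPKM and 2701 to 3879 FPKM. The relatives Rpl3 and Rpl10 had log2 fold changes of 0.22 and 0.16 in iTreg cells, and Rpl3 was called higher with the block only (limma adjusted p = 0.391, with the block 0.0302). Rpl3l and Rpl10l were not analysed here.

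The stalk genes Rplp0, Rplp1, and Rplp2, whose products recruit the translational GTPases, lay near the class median in iTreg cells. Rplp0 was at 4006, 4246, 4819, and 4210 FPKM in Th0 and 4395, 4568, 6223, and 4812 FPKM in iTreg libraries. Rplp1 was at 5332 to 6130 FPKM in Th0 and 5970 to 7733 FPKM in iTreg libraries, and Rplp2 at 2682 to 3214 FPKM and 3141 to 3737 FPKM. All 3 were higher in 4 of 4 headings, with log2 fold changes of 0.20, 0.19, and 0.17, and neither Rplp0, Rplp1, nor Rplp2 was called with the block (limma adjusted p = 0.0663, 0.0744, and 0.0683). Rpl5 and Rpl11 form with 5S rRNA the particle that binds MDM2. Rpl11 was at 2046, 2330, 2430, and 2127 FPKM in Th0 and 2377, 2653, 2987, and 2368 FPKM in iTreg libraries and was called higher with the block only (log2 fold change 0.21, limma adjusted p = 0.235, with the block 0.0364). Rpl5 was higher in 3 of 4 headings (log2 fold change 0.13, limma adjusted p = 0.599). Rps6, the target of the S6 kinases, was at 1905, 2259, 2319, and 1971 FPKM in Th0 and 2138, 2267, 2683, and 2195 FPKM in iTreg libraries (log2 fold change 0.13, limma adjusted p = 0.484). Rpsa, also known as the laminin receptor, had log2 fold changes of 0.12 in iTreg and -0.19 in Th17 cells and was not called in either.

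The other genes of the pathway were counted on lists. Ribosome biogenesis factors, which make and process rRNA and assemble the subunits, had a median log2 fold change of 0.24 in iTreg cells, with 95 of 101 above 0. A rise was called for 11 (10.9%) and a fall for 0, where 8.36% and 8.21% of all tested genes were called. With the block 52 (51.5%) were higher and 2 (1.98%) lower, in comparison to 20.9% and 20.0% of all tested genes. The most raised were Noc4l, a factor of the small subunit (36.7 ± 9.71 FPKM in Th0 and 62.8 ± 7.67 FPKM in iTreg cells, SD, n = 4, log2 fold change 0.79), and Nop16, a nucleolar protein (29.2 ± 7.10 and 45.8 ± 3.35 FPKM, 0.66). In Th17 cells the list had a median of -0.09, with 2 called higher (1.98%) and 3 lower (2.97%), in comparison to 10.6% and 8.69% of all tested genes. With the block 3 (2.97%) were higher and 8 (7.92%) lower, in comparison to 19.2% and 18.6%. Rrp1b, which acts in rRNA processing, rose from 15.3 ± 2.13 to 42.5 ± 6.60 FPKM (log2 fold change 1.41, limma adjusted p = 0.000258) and Nob1, the nuclease that finishes 18S rRNA, rose by 0.48, while Urb2 and Gar1 fell by 0.60 and 0.53 on the log2 scale.

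Elongation factors, initiation factors, and other genes put on a list as TOP-type (28 genes) had a median of 0.21 in iTreg cells. Whether each of them has a TOP tract was not examined. By limma 1 rose (3.57%, in comparison to 8.36% of all tested genes), the initiation factor gene Eif3g (log2 fold change 0.36). With the block 13 were called higher (46.4%, in comparison to 20.9%). In Th17 cells the median was -0.03, and limma called 0 in either direction, with 2 higher and 1 lower at an unadjusted p under 0.05. At that threshold 1720 of all 10269 tested genes were higher and 1606 lower. With the block 2 were called in each direction (7.14% each, in comparison to 19.2% higher and 18.6% lower among all tested genes). Of 9 ribosomal proteins with other names, such as Fau, limma called 0 in either comparison. At an unadjusted p under 0.05 there were 0 in Th17 cells and 1, a rise, in iTreg cells. Of all 10208 tested genes 1562 were higher in iTreg cells at that threshold. With the block 3 were higher in iTreg cells (33.3%, in comparison to 20.9%). Of 47 mitochondrial translation factors, synthetases, and assembly factors, 4 rose and 2 fell in Th17 cells (8.51% and 4.26%, in comparison to 10.6% and 8.69% of all tested genes). With the block 4 were higher and 4 lower (8.51% each, in comparison to 19.2% and 18.6%). In iTreg cells 1 rose and 2 fell (2.13% and 4.26%, in comparison to 8.36% and 8.21%), and with the block 6 were higher and 5 lower (12.8% and 10.6%, in comparison to 20.9% and 20.0%). Ddx28, a helicase of mitochondrial ribosome assembly, rose from 10.6 ± 0.994 to 30.2 ± 5.37 FPKM in Th17 cells (log2 fold change 1.42) and Aars2, the alanyl-tRNA synthetase, by 0.64. Mrrf, the ribosome recycling factor, rose in iTreg cells (0.57). Tfb1m fell by 0.69 in Th17 cells and the prolyl-tRNA synthetase Pars2 by 0.46 in iTreg cells, both on the log2 scale.

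Of 24 regulators of ribosome and protein synthesis, 4 rose and 2 fell in Th17 cells (16.7% and 8.33%, in comparison to 10.6% and 8.69% of all tested genes), and 7 were higher and 4 lower with the block (29.2% and 16.7%, in comparison to 19.2% and 18.6%). In iTreg cells limma called 5 higher and 0 lower (20.8% higher, in comparison to 8.36%). At an unadjusted p under 0.05, 6 were higher and 3 lower, where 1562 and 1512 of all 10208 tested genes were. With the block 7 were higher and 3 lower (29.2% and 12.5%, in comparison to 20.9% and 20.0%). Myc, the transcription factor known to drive ribosome synthesis in activated T cells, was at 60.9, 42.7, 76.1, and 74.1 FPKM in Th0 and 145, 137, 118, and 120 FPKM in iTreg libraries. No iTreg library overlapped Th0 in this gene (log2 fold change 1.05, standard error 0.18, limma adjusted p = 0.00547). In Th17 libraries it was at 48.1, 63.0, 94.3, and 106 FPKM, which overlapped Th0 (log2 fold change 0.24, limma adjusted p = 0.597). Mxd1, a partner of MAX that opposes MYC, rose in both comparisons (log2 fold changes 1.65 and 1.04), and Trp53 and Mdm2 fell by 0.53 and 0.37 on the log2 scale in Th17 cells. Proliferation genes (10) had medians of -0.95 in Th17 and -0.71 in iTreg cells, with 0 of 10 above 0. The replication clamp Pcna fell in both (log2 fold changes -1.06 and -0.68) and the helicase genes Mcm3 and Mcm5 in iTreg cells (-0.72 and -0.70). In all, 1 and 4 genes were called lower (10% and 40%, in comparison to 8.69% and 8.21% of all tested genes). With the block 9 and 10 were called lower (90% and 100%, in comparison to 18.6% and 20.0%). Their summed FPKM was 1057 to 1701 in Th0, 485 to 1349 in Th17, and 581 to 1119 in iTreg libraries (the last in the scale of the iTreg table). The part of proliferation in the ribosomal protein values was not tested.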

How the data were processed

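RNA-seq tables of 12 libraries (4 each of Th0, Th17, and iTreg cells) were used. Per the submitters' notes and the methods, reads were aligned with TopHat 2.0.14 to mm10 (GRCm38) and counted on exons without strand with HTSeq-count. The authors deposited FPKM scaled for each table, beside the fold changes, p-values, and FDR of their own edgeR comparison, which were not used. The sources used here do not state how FPKM was calculated.

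The filter kept genes over 1 FPKM in 4 or more of 8 libraries. Limma 3.58.1 (R 4.3.3) was fitted to log2(FPKM + 1) (unpaired, Benjamini-Hochberg, FDR 0.05). The labels number 4 experiments, but column headings carry other names. Libraries that share the beginning of a heading had correlated deviations (0.450 to 0.784 and 0.662 to 0.769), so a paired fit with this beginning as the replicate block is printed where it changes a call. On simulated data of the Th17 comparison (10269 genes) 78% of 2-fold changes were recovered without and 81% with the block, with 5.41% and 5.29% of calls false, and for iTreg (10208 genes) 77% and 83%, with 8.51% and 1.68% false. A heading effect was simulated only for the fit with the block, so these percentages come from different simulated data. The fit without the block was not tried on data with a heading effect. Changes as small as the class medians were not simulated. Fragment totals are unknown, so no counting intervals were calculated. The labels do not say whether cultures came from separate animals, and p-values measure the spread between these libraries. Members, lists, and the genes named (the 4 largest rises and falls called in each class and comparison, the 3 highest and 3 lowest of each class, fixed paralogue, stalk, 5S, and mitochondrial genes, and 2 per direction of each other list) were chosen with earlier results of these data known. Alternatives were the pseudocount, the filter, 3 scalings, the variance model, FDR 0.01, the replicate block, and left-out libraries. Python 3.11.15 with pandas 2.3.3 was used for tallies. Annotation overlaps come from GENCODE M21. Some genes that the rules for named genes and markers include are not reported here.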

Additional observations from a re-analysis of the deposited data

Results flagged for a closer look

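In 6 members 1 library stood apart from the other 3 of its group, each time from heading M42: the gap to its nearest neighbour divided by the range of the group was over Dixon's 95% critical value. Mrps6 was at 65.4 FPKM in the Th17 library M42 and at 48.04 to 49.7 FPKM in the others, Mrpl44 at 29.4 against 21.4 to 22.2 FPKM, Mrpl45 at 29.3 against 24.1 to 24.4 FPKM, and Mrpl51 at 38.4 against 26.7 to 28.5 FPKM. In the iTreg library M42, Mrps18a was at 44.2 FPKM against 34.8 to 36.1 FPKM and Rps26 at 3562 FPKM against 2779 to 2868 FPKM. Chance flags about 1 in 20 groups, and 160 groups of 4 were looked at. Heading M42 also had the highest cytosolic share in every group.

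For 6 members Th17 cells were on one side of Th0 cells in all 4 headings and iTreg cells on the other, all 6 lower in Th17 cells. Of all tested genes, 26.9% were lower in Th17 cells and 29.1% higher in iTreg cells in all 4 headings. How many were both was not counted, so these 6 have no share of all genes beside them. The log2 fold changes in Th17 and iTreg cells were -0.14 and 0.14 for Mrpl35, -0.11 and 0.26 for Mrpl48, -0.25 and 0.10 for Mrpl51, -0.40 and 0.15 for Mrps28, -0.093 and 0.32 for Rpl34, and -0.19 and 0.12 for Rpsa. Both comparisons use the same Th0 libraries, the tables are scaled separately, and the difference was not tested.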

How the results depend on the processing

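The calls of single members in iTreg cells and of the mitochondrial class in Th17 cells depended on the fit, while the class medians kept their sign except that of the cytosolic class in Th17 cells (-0.04 to 0.17 with a library or heading left out). With the replicate block, 3882 genes were called in place of 1983 in the Th17 and 4170 in place of 1691 in the iTreg comparison, together with 1 cytosolic and 10 lower mitochondrial members in Th17 cells, and 34 cytosolic and 16 mitochondrial members higher in iTreg cells. At an FDR of 0.01, 995 and 778 genes were called, and 0 cytosolic and 0 mitochondrial members were higher in iTreg cells. Members higher in iTreg cells without overlap were 10 and 9 in place of 3 and 3. With libraries scaled to the same summed FPKM, 1 cytosolic member was higher in iTreg cells, the class median was 0.10 in place of 0.20, and the signs of Mrpl51 (-0.0020), Mrpl13 (-0.0094), Mrps18c (-0.0055), Mrpl44 (-0.023), and Mrpl3 (-0.081) turned. Mrpl3 was at -0.026 with scaling outside the classes, Mrps18a at 0.0012 with trimmed mean scaling, and Rps4l at 0.11 with the pseudocount of 0.1. With single libraries or, as was added after seeing the data, both libraries of a heading left out, 684 to 2083 genes were called in the Th17 and 519 to 1477 in the iTreg comparison, 0 to 6 mitochondrial members were lower in Th17 cells, and 0 to 2 cytosolic and 0 to 2 mitochondrial members were higher in iTreg cells, with fewer libraries in these fits. In them, Rpl34 in Th17 cells ranged from -0.20 to 0.0066, and in iTreg cells Mrpl13 from -0.016 to 0.19, Mrps18a from -0.076 to 0.068, Rps4l from -0.28 to 0.19, Rpl39l from -0.12 to 0.32, Mrpl44 from -0.015 to 0.14, and Mrpl3 from -0.059 to 0.079. None of these genes was called. The cause of the other changes was not tested. Depth was estimated only as a ratio between libraries, and counting error per gene is unknown.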
